A study of Mus musculus with 2 samples.

Results

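The miR-200 family of mouse has 5 genes, Mir200a, Mir200b, Mir429, Mir200c and Mir141. They were selected by gene symbol, and all 5 were found among the 1973 miRNA gene rows counted in each library. The libraries are microRNA-seq of embryonic facial prominence from strain B6NCrl at 14.5 days of embryonic age. Each of 2 biological replicates gave 1 library, and the design holds no further group, treatment or genotype. The labels call each sample the face of a single pup, with different collection days, but also give the sex as pooled male and female, so it is not settled whether a replicate is 1 embryo.

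The family is best known from epithelia. Its members repress the transcription factors Zeb1 and Zeb2, which in turn repress the miR-200 genes and E-cadherin, so that cells with high miR-200 tend to keep an epithelial state and cells with high Zeb a mesenchymal one. The facial prominences of the embryo consist largely of mesenchyme under a sheet of surface epithelium, with olfactory, oral and dental epithelia forming from that sheet. A miRNA finds its targets mainly through its seed, bases 2 to 8 counted from the 5′ end, and the family carries 2 seeds.

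The mature 3p strands are shown because their seeds divide the family. They are RefSeq sequences (build GRCm38.p6, 5′ to 3′), with the seed in capitals.
miR-200b-3p: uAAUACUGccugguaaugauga
miR-200c-3p: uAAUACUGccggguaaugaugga
miR-429-3p: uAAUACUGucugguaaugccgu
miR-200a-3p: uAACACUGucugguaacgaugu
miR-141-3p: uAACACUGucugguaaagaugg

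The seeds AAUACUG and AACACUG differ at a single base. Counted from the 5′ end, the change from miR-200b-3p to miR-200a-3p there is U4C. Of 1738 mature mouse miRNAs in the RefSeq table, 3 carry AAUACUG and 2 carry AACACUG, all of them in this family. Seed mates resemble each other beyond the seed in 2 cases: miR-200b-3p and miR-200c-3p differ at 2 of 22 compared positions (U11G and A22G), and miR-141-3p and miR-200a-3p also at 2 (A17C and G22U). The strand of miR-429-3p differs from miR-200b-3p at 4 positions.

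The genes lie in 2 clusters on assembly mm10, both on the minus strand. Mir200b (ENSMUSG00000065549.2, chr4:156055681-156055750), Mir200a (ENSMUSG00000065400.1, chr4:156054896-156054985) and Mir429 (ENSMUSG00000065427.1, chr4:156053905-156053987) lie in this 5′ to 3′ order within 1846 bp. All 3 are inside an intron of Ttll10, a gene of the tubulin tyrosine ligase-like family, and inside the noncoding gene Gm13648, where Mir429 overlaps an exon and the others lie in introns. Mir200c (ENSMUSG00000065462.2, chr6:124718322-124718390) and Mir141 (ENSMUSG00000065474.1, chr6:124717914-124717985) lie within 477 bp, in an intron of the noncoding gene Gm15884 between Phb2 and Ptpn6. Mir141 also overlaps an exon of the unclassified transcript Gm29008. Each cluster therefore holds both seeds.

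The hairpins of the members highest and lowest by mean level are printed because a read from either arm of a hairpin counts for its gene. Capitals mark the 5p and the 3p mature strands.
Mir429: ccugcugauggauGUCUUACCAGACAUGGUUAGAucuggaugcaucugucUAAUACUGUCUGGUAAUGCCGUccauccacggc
Mir200a: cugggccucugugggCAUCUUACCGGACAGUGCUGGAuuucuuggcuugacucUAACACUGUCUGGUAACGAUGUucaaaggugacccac

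The counts do not separate the arms, so a gene's level cannot be assigned here to its 3p strand alone. Levels are given in CPM, the gene-strand counts scaled to a common total of miRNA counts, and not per length, since the mature strands are 21 to 23 bases long. Levels of different miRNAs also carry the biases of adapter ligation.

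The family made up a small but well counted share of the miRNA reads placed at a single position. It held 61594 of 2719153 gene-strand miRNA counts in replicate 1, or 2.27% (95% Wilson interval 2.25 to 2.28), and 160604 of 6602050 in replicate 2, or 2.43% (2.42 to 2.44). The summed level was 22652 and 24326 CPM, a mean of 23489 ± 1184 CPM (SD, n = 2). Intervals cover counting error only, as no molecular identifiers are described. Reads at several positions, 29.8% and 28.5% of all reads, are not in these totals. Genes with near-identical copies can lose reads this way, so the family's share and ranks hold among the counted reads only. In a whole tissue, fewer cells of a type and less RNA per cell cannot be told apart.

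The 5 genes fell into 3 tiers of level, and the tiers did not overlap between the libraries. Mir429 alone formed the highest. It had 29444 counts in replicate 1 and 78534 in replicate 2, which is 10828 and 11895 CPM (mean 11362 ± 754.5, SD, n = 2). That placed it 23rd among all miRNA genes by mean level of the counted reads, between Mir127 at 11771 ± 1145 CPM and Mir431 at 10510 ± 140.4 CPM.

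Mir200b and Mir200c formed the middle tier and could not be ordered. Mir200b stood at 5001 and 5670 CPM (mean 5335 ± 473, SD, n = 2), from 13598 and 37432 counts. Mir200c stood at 5148 and 5141 CPM (mean 5145 ± 4.85), from 13999 and 33944 counts. Mir200c was the higher of the pair in replicate 1 and Mir200b in replicate 2. By mean level they took ranks 41 and 42, next to each other, with Mir744 (5589 ± 895 CPM) above and Mir298 (4913 ± 19.7 CPM) below.

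Mir141 and Mir200a, which carry the seed AACACUG, formed the lowest tier. Mir141 stood at 831 and 884 CPM (mean 857 ± 37.1, SD, n = 2), from 2260 and 5834 counts. Mir200a stood at 843 and 736 CPM (mean 789.7 ± 75.8), from 2293 and 4860 counts. Their order also changed between the libraries. They ranked 110 and 114 by mean level. The neighbours of Mir141 were Mir15b at 897 ± 85.4 CPM and Mir376c at 823 ± 140.5 CPM, and those of Mir200a were Mir320 at 791 ± 6.96 CPM and Mir665 at 724 ± 192 CPM. None of the neighbours of these 2 genes stood apart from them by more than the spread between the libraries. Reads on the opposite strand of the 5 genes were 3 in replicate 1, all at Mir200a, and 0 in replicate 2.

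**Figure D1:**
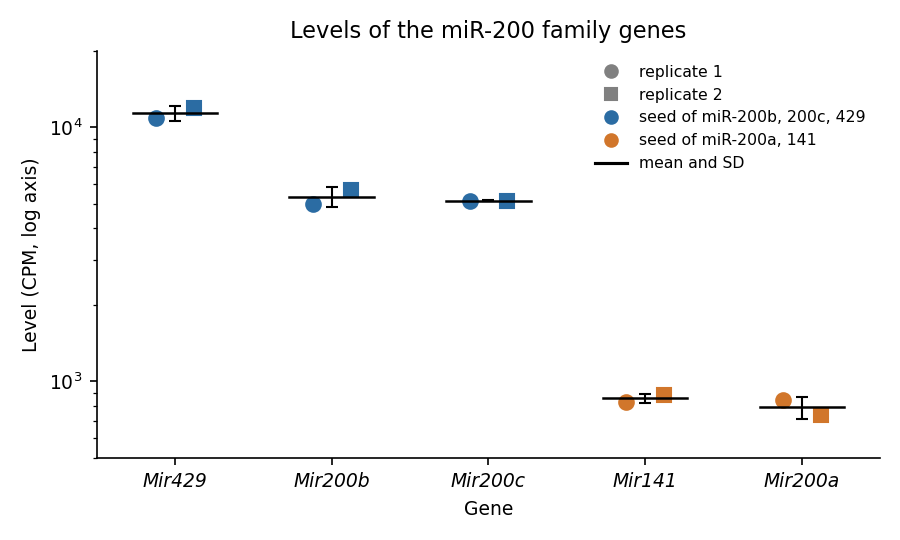
Level of each miR-200 family gene in CPM (log axis) in replicate 1 (circles) and replicate 2 (squares); black lines and bars are the mean and SD of the 2 libraries, and colour gives the seed group. Mir429 stands at 10828 and 11895 CPM, Mir200b and Mir200c between 5001 and 5670 CPM, and Mir141 and Mir200a between 736 and 884 CPM.

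The seed groups differed by more than the clusters did. The AAUACUG genes summed to 20978 CPM in replicate 1 and 22707 CPM in replicate 2, and held 92.6% and 93.3% of the family's counts. The AACACUG genes summed to 1674 and 1620 CPM. The AAUACUG sum was thus 12.5-fold and 14.0-fold the AACACUG sum, a mean log2 ratio of 3.73 ± 0.11 (SD, n = 2). The groups have 3 and 2 genes, and per gene the difference was 8.35-fold and 9.35-fold. With 2 libraries the smallest two-sided p of an exact test over samples is 0.5, so no such test of this ratio or of the cluster ratio could pass 0.05, and both are given as values with their spread.

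The same order of seeds was seen inside each cluster. On chromosome 6, Mir200c exceeded Mir141 by 6.19-fold in replicate 1 and 5.82-fold in replicate 2 (mean log2 ratio 2.59 ± 0.064). On chromosome 4, Mir200b exceeded Mir200a by 5.93-fold and 7.70-fold (2.76 ± 0.27). The order of these 2 ratios changed between the libraries, with chromosome 6 higher in replicate 1 and chromosome 4 in replicate 2. In replicate 2 they lay apart beyond counting error, at log2 2.95 (SE 0.022) on chromosome 4 and 2.54 (SE 0.020) on chromosome 6. The step from the first hairpin to the AACACUG hairpin could therefore not be ordered in size between the clusters from 2 libraries. Mir429 exceeded Mir200a by 12.8-fold and 16.2-fold (3.85 ± 0.23). Summed, Mir429 and Mir200b exceeded Mir200a by 18.8-fold and 23.9-fold (4.40 ± 0.24), above the chromosome 6 ratio in both libraries.

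The chromosome 4 cluster was higher than the chromosome 6 cluster. It summed to 16673 and 18301 CPM (mean 17487 ± 1152), against 5979 and 6025 CPM (6002 ± 32.3). The ratio was 2.79-fold and 3.04-fold, a mean log2 ratio of 1.54 ± 0.087 (SD, n = 2), and the chromosome 4 genes held 73.6% and 75.2% of the family's counts. The clusters have 3 and 2 genes, and per gene the difference was 1.86-fold and 2.03-fold.

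The excess of the chromosome 4 cluster lay in Mir429. Without that gene the cluster summed to 5844 and 6406 CPM, 0.977-fold and 1.06-fold the chromosome 6 sum, a log2 ratio of 0.028 ± 0.086 with opposite signs in the 2 libraries. The seed contrast was smaller without Mir429 but kept its direction, at 6.06-fold and 6.67-fold (mean log2 ratio 2.67 ± 0.098). Mir429 exceeded its seed mate and cluster neighbour Mir200b by 2.17-fold and 2.10-fold (mean log2 ratio 1.09 ± 0.032).

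**Figure D2:**
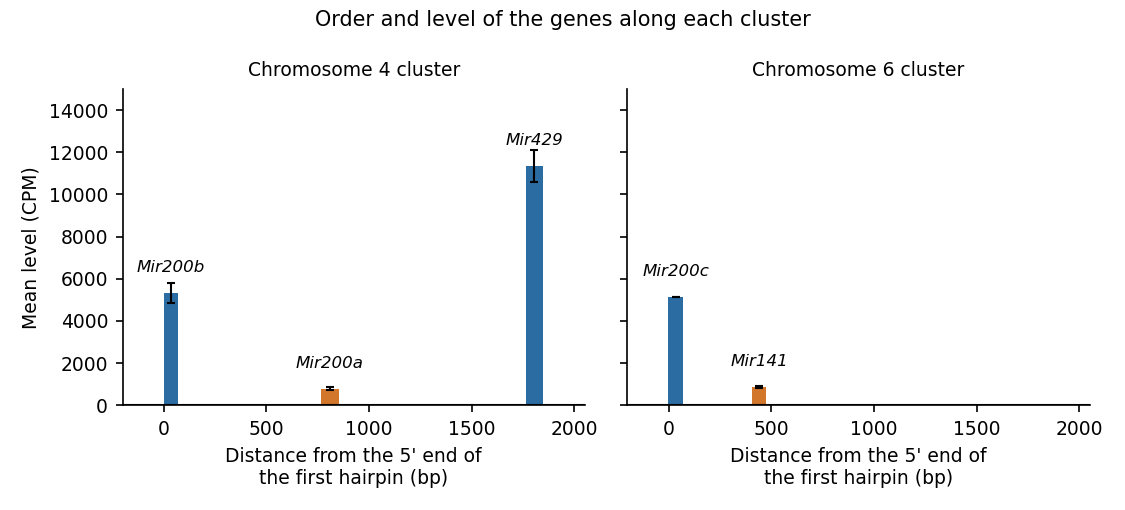
Mean level of each gene (CPM, bars from 0, error bars SD of 2 libraries) at its distance in bp from the 5′ end of the first hairpin of its cluster, with bar width equal to hairpin length; blue bars carry the seed AAUACUG and orange bars AACACUG. The first hairpins stand at 5335 and 5145 CPM, the second at 790 and 857 CPM, and Mir429, at 11362 CPM, has no counterpart on chromosome 6.

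The strands of miR-141-3p and miR-200a-3p share their first 16 bases. Apart from this pair, no member's 3p strand shares a run that long with another of the 1005 hairpins in the RefSeq table, and the longest run shared by Mir429 is 12 bases and by Mir200b and Mir200c 10. In the layout of these counts only reads placed at a single position enter. A read that began at the 5′ end of either strand and ended within the shared 16 bases would match both and not be counted. Read lengths are not in the counts, and the part of such reads in the seed contrast was not tested.

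Differences between the replicates were small beside these contrasts. Counts of the 2 libraries were compared gene by gene with an exact two-sided binomial test after TMM scaling (trimmed mean of M-values, which evens out most genes between libraries), with Benjamini-Hochberg adjustment over the 372 miRNA genes that had a mean of at least 10 counts, a filter all 5 members passed. The test compares 2 libraries, not conditions, and it called 52.2% of all genes, 27.4% as higher in replicate 2. Of the family, 4 genes were higher in replicate 2 and Mir200a was not called. A deeply counted gene is called more readily. Each member had 2260 counts or more in each library, while the 372 genes reach down to a mean of 10. The shares over all genes are therefore not matched to the family in depth.

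Mir200b had the largest log2 ratio of replicate 2 over replicate 1, 0.31 with a counting SE of 0.014 (exact binomial test, adjusted p = 4.6e-102). Mir429 was at 0.26 (SE 0.0099), Mir141 at 0.21 (SE 0.036) and Mir200c at 0.12 (SE 0.014). Mir200a was at -0.071 (SE 0.037, exact binomial test, adjusted p = 0.097). The median of the 5 members was 0.21, beside -0.017 over all tested genes. Among 127 genes whose mean reached 500 CPM, the 5 members included, 59.8% had a shift no larger than the largest in the family.

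The calls depended on the scaling. With total counts in place of TMM, which lowers the median of all tested genes by 0.13 to -0.14, 3 members were higher in replicate 2 beside 17.2% of all genes, and Mir200a was lower, as were 35.8% of all genes. Its log2 ratio was then -0.20 (exact binomial test, adjusted p = 3.4e-07). Mir200c turned to -0.0020 and lost its call (adjusted p = 0.93, same exact test).

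Ratios between members do not depend on scaling. Of the 10 pairs, 9 had a ratio that differed between the libraries beyond counting error (Fisher's exact test, two-sided, Benjamini-Hochberg over the 10 pairs). The 10 pairs are formed from 5 genes and are not independent. Deeply counted pairs are called readily and pairs of other genes were not tested, so this count cannot be read as a trait of the family. The 4 largest differences all involved Mir200a, the only member with a negative log2 ratio after TMM scaling (-0.071). As replicate 2 minus replicate 1, the log2 ratio of Mir200b over Mir200a differed by 0.38 (95% interval 0.30 to 0.45, Fisher's exact test, adjusted p = 2.7e-20), and those of Mir429, Mir141 and Mir200c over Mir200a by 0.33, 0.28 and 0.19. Mir429 and Mir141 were the exception, with a difference of 0.047 (interval -0.025 to 0.12, exact test, adjusted p = 0.21). In 8 of the 10 pairs the same gene was higher in both libraries, and the other 2 were the pairs Mir200b with Mir200c and Mir141 with Mir200a.

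The ratio of the clusters and the ratio of the seed groups each differed between the libraries as well. On the log2 scale the cluster ratio was higher in replicate 2 by 0.12 (95% interval 0.093 to 0.15, Fisher's exact test, adjusted p = 6e-15 over 4 group ratios) and the seed ratio by 0.16 (0.11 to 0.21, exact test, adjusted p = 1.6e-09). The seed ratio differed in opposite directions in the clusters. Replicate 2 minus replicate 1 was 0.35 on chromosome 4 and -0.090 on chromosome 6 (interval -0.17 to -0.015, Fisher's exact test, adjusted p = 0.019).

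**Figure D3:**
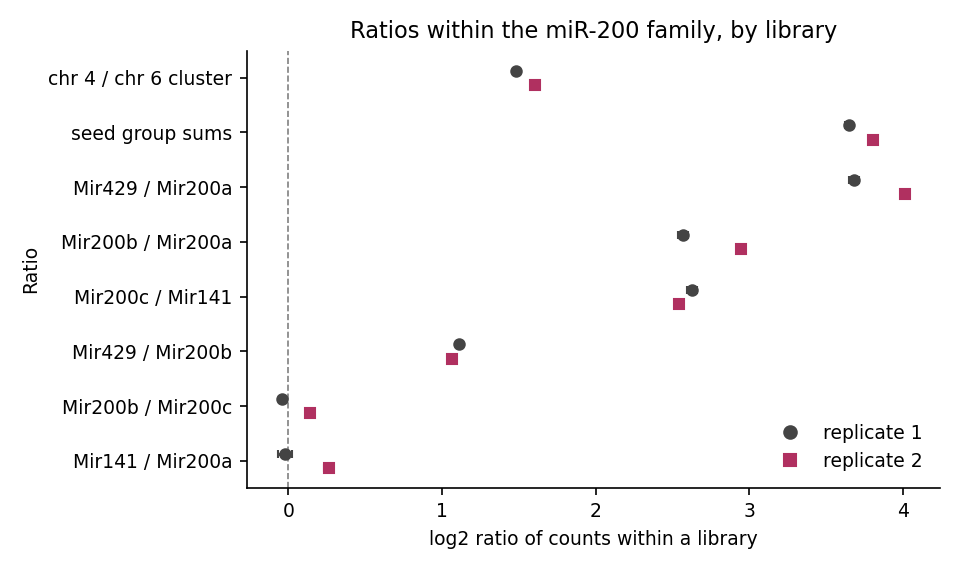
Log2 ratios of counts within replicate 1 (circles) and replicate 2 (squares) for the cluster sums, the seed group sums (AAUACUG over AACACUG) and 6 pairs of members; bars are counting SE, mostly smaller than the symbols. Only Mir200b over Mir200c and Mir141 over Mir200a, among the ratios drawn, lie on both sides of 0.

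The genes of at least 1000 CPM whose log2 ratio between the libraries was closest to the family sum (0.23) were Mirlet7b, Mir369 and Mir28a, each within 0.0047. Closest to the chromosome 4 sum (0.26) were Mir425, Mir98 and Mir28a, within 0.027, and closest to the chromosome 6 sum (0.14) Mir501, Mir342 and Mir125a, within 0.0084. The search covered 99 genes and only 2 libraries, so this likeness rests on 1 difference per gene.

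As counted and summed, the list of other epithelial miRNAs stood above the family and the mesenchymal list below it. The 8 genes of the epithelial list summed to 49924 and 65392 CPM, so the family was 0.454-fold and 0.372-fold that sum. Mir203, a miRNA of differentiating epidermis, stood at 21094 and 35599 CPM, while Mir205, an epidermal progenitor miRNA, stood at 8705 and 7509 CPM, below Mir429 in both libraries. The sensory organ genes Mir182, Mir183 and Mir96 stood at 9837 ± 75.7, 6575 ± 693 and 3118 ± 607 CPM, and Mir375 of endocrine and sensory cells at 990 ± 292 CPM. Mir31 (476 ± 12.5 CPM) and Mir34a (209 ± 3.65 CPM) lay below every member of the family.

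The epithelial list had 6 of 8 genes higher and 1, Mir205, lower in replicate 2 (median log2 ratio 0.26), beside 27.4% of all tested genes called higher and 24.7% called lower. With total counts 4 were higher and 1 lower, beside 17.2% and 35.8% of all tested genes. These shares are not matched in depth to either list. In the mesenchymal list of Mir214, Mir199b, Mir199a-1 and Mir199a-2, 2 of 4 were lower and 0 higher (median -0.27), beside the same 24.7% lower among all tested genes, and 3 were lower with total counts, beside 35.8%. Its sum was 17643 and 12119 CPM, so the family was 1.28-fold that sum in replicate 1 and 2.01-fold in replicate 2. Mir214 (13601 ± 3584 CPM) made up most of that sum, with Mir199b at 961 ± 289 CPM, Mir199a-2 at 286 ± 33.5 CPM and Mir199a-1 at 33.4 ± 1.43 CPM. The 3 Mir199 genes are copies whose mature strands share runs of at least 20 bases with each other's hairpins in the RefSeq table, so their reads may drop out as not uniquely placed and the mesenchymal sum can be too low. The part of these shifts in the differences of the miR-200 genes between the replicates was not tested.

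**Figure D4:**
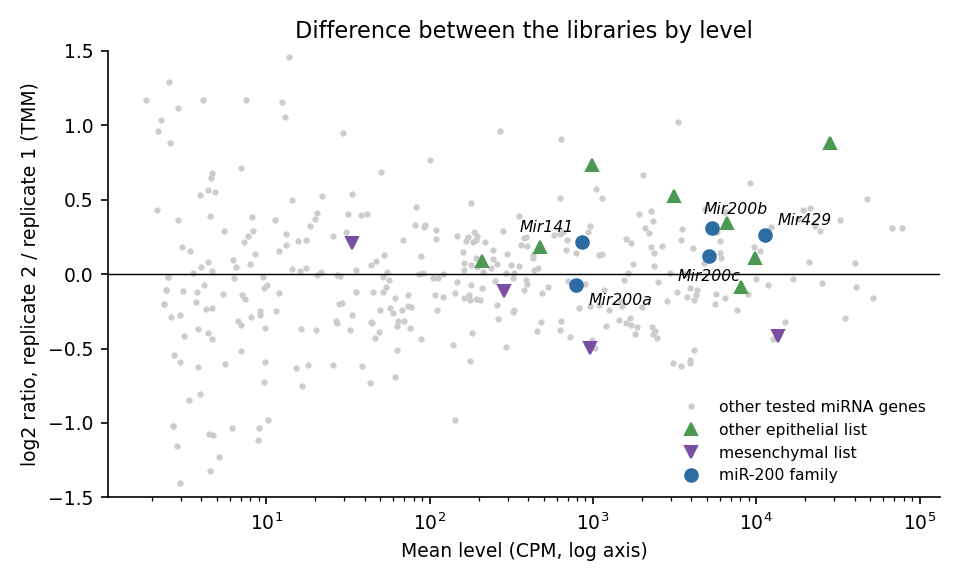
Log2 ratio of replicate 2 over replicate 1 after TMM scaling against mean level in CPM (log axis) for the tested miRNA genes, with the miR-200 family (blue circles), the epithelial list (green) and the mesenchymal list (purple) marked; 4 genes beyond 1.5 in either direction are not drawn. The family lies between -0.071 and 0.31. Of the epithelial list, Mir203, Mir375, Mir96 and Mir183 lie higher, at 0.88, 0.74, 0.53 and 0.34, and Mir205 lies lower, at -0.088. With total counts Mir200c turns to -0.0020.

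Markers of the other cell types of the face were present as well. Cartilage genes (Mir140 and Mir455) summed to 42578 ± 1238 CPM, endothelial Mir126a stood at 47919 ± 8833 CPM, striated muscle genes summed to 12532 ± 1158 CPM and smooth muscle genes to 17204 ± 1309 CPM. Nearly all of the striated muscle sum was Mir206, at 12271 ± 1164 CPM, with Mir133b at 260 ± 7.56 CPM, while Mir1a-1, Mir133a-1 and Mir133a-2 had means of 1.01, 0.606 and 0.151 CPM. Of the smooth muscle genes, Mir143 stood at 16808 ± 1322 CPM and Mir145a at 396 ± 12.2 CPM. The neural (829 ± 153 CPM, mostly Mir137), erythroid (1249 ± 221 CPM, mostly Mir451a) and leukocyte (720 ± 123 CPM, mostly Mir223) sums were each below the level of Mir200b. Of these lists, Mir1a-2, Mir9-1 and Mir142 were not found by symbol in the counts used here, where 1894 of 1973 identifiers had a name. Mir124a-1, Mir124a-2, Mir124a-3 and Mir9-2 were at 0 counts, and the several copies of these neural miRNAs, like those of Mir1a and Mir133a, are near-identical, so reads from them may drop out as not uniquely placed.

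Matches to the 2 seeds differ in number among mouse 3′ UTRs. The 7-base match to AAUACUG is CAGTATT, and it occurs on the sense strand in the longest annotated 3′ UTR of 13.3% of 21039 protein-coding genes. The match to AACACUG is CAGTGTT and occurs in 17.2%, and both occur in 4.68%. Zeb1 and Zeb2 are at the far end of this distribution. Each holds 5 matches to AAUACUG, a number reached by 0.0285% of genes, and 4 to AACACUG, reached by 0.247%. A match is a description of letters and not a measured site, the longer a UTR the more it can hold, and mRNA was not measured in these libraries.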

How the data were processed

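The authors deposited raw read counts per miRNA gene, 1 library per file, aligned to mm10 and counted over GENCODE M4, per the labels and the deposited metadata text. The aligner and adapter removal: not given in the sources used here. The columns carry no names and were read as in STAR's gene counts: both strands, gene strand, opposite strand. Gene-strand counts were used. The 4 summary rows were left out of totals: reads at several positions were 29.8% and 28.5% of all reads, unmapped 16.6% and 17.6%, outside miRNA genes 3.00% and 2.38%. Total counts per library were 2719153 and 6602050.

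Symbols came from GENCODE M21 (1894 of 1973 identifiers named) and sequences from RefSeq GRCm38.p6, where all 5 members matched. CPM used the gene-strand total. Exact binomial tests (scipy 1.17.1) used TMM effective library sizes (edgeR 4.0.16), a minimum mean of 10 counts, a prior of 0.5 counts for log2 ratios, and Benjamini-Hochberg adjustment at 0.05. The binomial step was tested on simulated counts with counting error only, which hold no spread between replicates. Fisher's exact tests compared member ratios. Nothing says how far the replicates' preparation was shared. The p-values set the difference between these 2 libraries against counting error only, and do not measure the spread between replicates. That spread, estimated over the tested genes as a coefficient of variation (edgeR), was 20.9%. Members and lists were chosen with earlier results of these data known. Named genes are the members, the genes of the epithelial, mesenchymal and contrast lists (of the contrast lists, printed as sums, only leading genes and those at or near 0 are named), level neighbours, and the 3 genes of at least 1000 CPM nearest in log2 ratio to each sum. Alternatives were other columns, scalings (total counts, DESeq2 1.42.0), filters, prior, denominators, and leaving out a replicate or Mir429.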

Additional observations from a re-analysis of the deposited data

How the results depend on the processing

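The number of genes called between the libraries (194) ranged from 176 with no count filter to 204 with the unstranded column. The filters test different numbers of genes, so these counts do not give the share called under each setting. Of 30 recomputed log2 ratios of single members, 27 kept their direction and call. Mir200c turned to -0.0020 with total counts, where all genes shift together. Mir200a became called as lower with total counts (-0.20) and at a mean of at least 100 counts (-0.087, exact binomial test, adjusted p = 0.028, over a range of 3.4e-07 to 0.83 across the alternatives). The family level of 23489 CPM became 11484 CPM with all reads as denominator and 25483 without the highest miRNA gene, by construction. Single members' levels moved by over 1 SD in 5 of 5 genes, 3 of 5 and, with the unstranded column, 2 of 5. Without Mir429 the cluster log2 ratio was 0.028 and the seed group ratio 2.67. The unstranded column moved the family level, cluster ratio and seed ratio by less than 1 SD, and 9 pairs were called with the unstranded column too. A count of 0 allows up to 3 counts, 1.10 and 0.454 CPM, so depth does not limit the members' levels.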
